A study of Mus musculus with 30 samples.

Results

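The period, cryptochrome and activator genes of the circadian clock were followed in mouse tissue that the study's methods call dorsal CA1 (dCA1). Object location memory (OLM) depends on this hippocampal field. The group holds 8 genes, Per1, Per2, Per3, Cry1, Cry2, Arntl, Clock and Npas2, taken by symbol from a table of 24883 rows. All 8 had a row, and all 8 were among the 13184 rows with a mean of at least 1 FPKM (fragment counts scaled for transcript length and library size) that were tested. Their levels were examined in 30 male C57BL/6J mice of wild-type genotype, aged 2 to 4 months per the study's methods, with 6 mice and 6 libraries in each of 5 conditions.

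VEH-HC mice received the transfection reagent in vivo-jetPEI without DNA and stayed in the home cage with handling only. VEH-T10 and VEH-T3 mice received the same vehicle and then 10 min of threshold or 3 min of subthreshold OLM training. Per the study's methods, OLM training follows days of habituation to the chamber. Home cage mice had none, so effects of habituation and of training cannot be told apart in a comparison with VEH-HC. Y397F-T10 mice received a plasmid for phospho-null CREST before 10 min of training, and Y397D-T3 mice a plasmid for phospho-mimetic CREST before 3 min. Phospho-null and phospho-mimetic are the labels' names for these point mutants, and the study could not detect phosphorylation at the mutated residue. CREST is a subunit of the neuronal BAF chromatin remodelling complex, and both plasmids encode HA-tagged mouse CREST under a miniCaMK2 promoter, so only transfected cells carry the mutant protein and the endogenous gene stays in place. Infusion was bilateral, 3 days before training, and tissue was taken 1 h after training. The labels name the tissue as dorsal hippocampus. Per the study's methods, behaviour was run in the morning hours of the light phase, ending by noon, which bounds the time of day of the trained mice. The hour at which each single mouse was killed, and any hour for the home cage mice, are not given in the sources used here, so a difference between trained and home cage mice cannot be told apart from a difference in time of day. No home cage group received a plasmid.

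In the clock, ARNTL (also called BMAL1) pairs with CLOCK or with its relative NPAS2, and the pair binds E-box elements to switch on the Per and Cry genes. PER and CRY proteins then gather in a complex that holds back this pair, which closes the daily loop. Per1 and Per2 are also known as genes that respond quickly to light, neuronal activity and glucocorticoids through cAMP response elements (CREs) and glucocorticoid receptor sites. In the hippocampus the clock genes cycle over the day, and Per genes have been tied to memory in rodents.

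The genes lie on 7 chromosomes of mm10. Per1 spans chr11:69095217-69109960 on the plus strand and Per2 chr1:91415982-91459324 on the minus strand. Per3, at chr4:151003652-151044665 on the minus strand, lies inside the span of Camta1 on the same strand, which averaged 41.5 FPKM, and reads from unspliced Camta1 RNA cannot be told apart from Per3 reads in this table. Cry1 spans chr10:85131700-85185064 and Cry2 chr2:92403646-92434043, both on the minus strand. Arntl spans chr7:113207465-113314126 on the plus strand, Clock chr5:76209868-76304792 on the minus strand and Npas2 chr1:39193731-39363236 on the plus strand. Clock has the longest transcript model of the 8, 9744 bases with 40.9% GC.

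Upstream sequence from RefSeq (GRCm38.p6) was found for 7 of the 8 genes, in 11 windows of 250 bases before to 50 bases after a start site. Per2 had no entry. The windows are shown for the genes that hold an E-box, a D-box or a CRE core, the elements through which clock and activity signals are known to reach these promoters. Only the 250 bases before the start are printed, 5′ to 3′, and capitals mark every match to a motif searched on either strand.

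Per1, upstream start, chr11:69098699-69098948, plus strand: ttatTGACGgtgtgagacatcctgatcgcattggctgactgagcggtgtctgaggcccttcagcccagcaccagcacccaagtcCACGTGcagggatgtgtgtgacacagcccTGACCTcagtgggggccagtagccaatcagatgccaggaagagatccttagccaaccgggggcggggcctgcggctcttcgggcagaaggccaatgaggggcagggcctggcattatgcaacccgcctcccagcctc

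Per1, downstream start, chr11:69099902-69100151, plus strand: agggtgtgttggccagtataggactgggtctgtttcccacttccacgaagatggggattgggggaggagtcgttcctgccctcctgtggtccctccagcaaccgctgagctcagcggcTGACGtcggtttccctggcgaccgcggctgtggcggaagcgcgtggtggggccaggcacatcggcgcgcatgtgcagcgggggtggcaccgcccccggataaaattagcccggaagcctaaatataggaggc

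Per3, chr4:151044666-151044915, minus strand: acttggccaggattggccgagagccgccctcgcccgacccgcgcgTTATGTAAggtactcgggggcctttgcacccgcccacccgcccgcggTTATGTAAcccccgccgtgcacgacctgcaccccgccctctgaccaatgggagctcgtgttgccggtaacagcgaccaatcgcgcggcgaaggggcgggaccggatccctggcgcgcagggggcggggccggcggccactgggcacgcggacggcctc

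Cry1, chr10:85185055-85185304, minus strand: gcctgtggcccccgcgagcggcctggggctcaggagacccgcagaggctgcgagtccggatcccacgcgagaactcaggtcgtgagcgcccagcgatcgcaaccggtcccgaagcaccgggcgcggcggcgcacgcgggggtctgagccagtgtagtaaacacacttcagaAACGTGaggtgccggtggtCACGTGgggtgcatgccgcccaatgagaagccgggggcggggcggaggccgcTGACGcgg

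Cry2, chr2:92434070-92434319, minus strand: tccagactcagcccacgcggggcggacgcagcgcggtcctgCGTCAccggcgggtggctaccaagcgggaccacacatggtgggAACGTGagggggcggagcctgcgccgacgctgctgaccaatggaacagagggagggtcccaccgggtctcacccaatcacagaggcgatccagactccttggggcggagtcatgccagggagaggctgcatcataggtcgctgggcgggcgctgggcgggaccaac

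The E-box CACGTG was present in Per1 and Cry1, 2 of the 7 genes, against 8.09% of all 27025 genes with a window (7.15% of their 32851 windows). The related E-prime box CACGTT, read as AACGTG on the strand printed, was present in Cry1 and Cry2 and in 5.44% of genes (4.68% of windows). The full CRE, TGACGTCA, was present in none of the 7 genes and in 2.03% of genes (1.79% of windows), while its core TGACG, which lies inside the full CRE, was present in Per1, Cry1 and Cry2 and in 23.0% of genes (20.8% of windows). A D-box, searched as TTATGTAA or TTACGTAA, occurred at 2 places in Per3 and in 1.23% of genes (1.06% of windows). The nuclear receptor core AGGTCA was present in Per1, Arntl and Clock and in 18.1% of genes (16.3% of windows), and the glucocorticoid receptor core AGAACA in none of the 7 genes and in 21.3% of genes (19.0% of windows). These are matches of letters and not sites of binding.

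FPKM is scaled by transcript length, so levels of the 8 genes are set side by side as a description. Effects of GC content, of the transcript model and, for Per3, of Camta1 reads were not removed from these levels. Cry2 was the highest, with a mean of 32.6 FPKM over the 30 mice and a range of 29.0 to 36.1. Per1 followed at 18.3 FPKM (15.3 to 21.9), Arntl at 9.93 (8.41 to 12.6), Clock at 7.66 (5.50 to 8.72) and Per2 at 6.10 (4.39 to 7.68). Per3, at 5.00 FPKM (4.16 to 6.13), Cry1, at 4.51 (3.22 to 6.08), and Npas2, at 4.24 (2.87 to 6.40), were the lowest. The order was the same in every mouse at the top: Cry2 exceeded Per1, Per1 exceeded Arntl and Arntl exceeded Clock in 30 of 30 mice. Further down it was less fixed, with Per3 above Cry1 in 20 and Cry1 above Npas2 in 19 of 30 mice. Npas2 was the most variable gene, with a coefficient of variation of 22.7% over the 30 mice, and Cry2 the least, at 7.13%. Some libraries stood apart: VEH-T10 mouse 1, Y397F-T10 mouse 1, VEH-T3 mouse 1 and Y397D-T3 mouse 3 were the lowest of all 30 in summed markers of both oligodendrocytes and astrocytes, and VEH-HC mouse 4 was the lowest in Clock, so results that rest on them are also given without them.

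**Figure D1:**
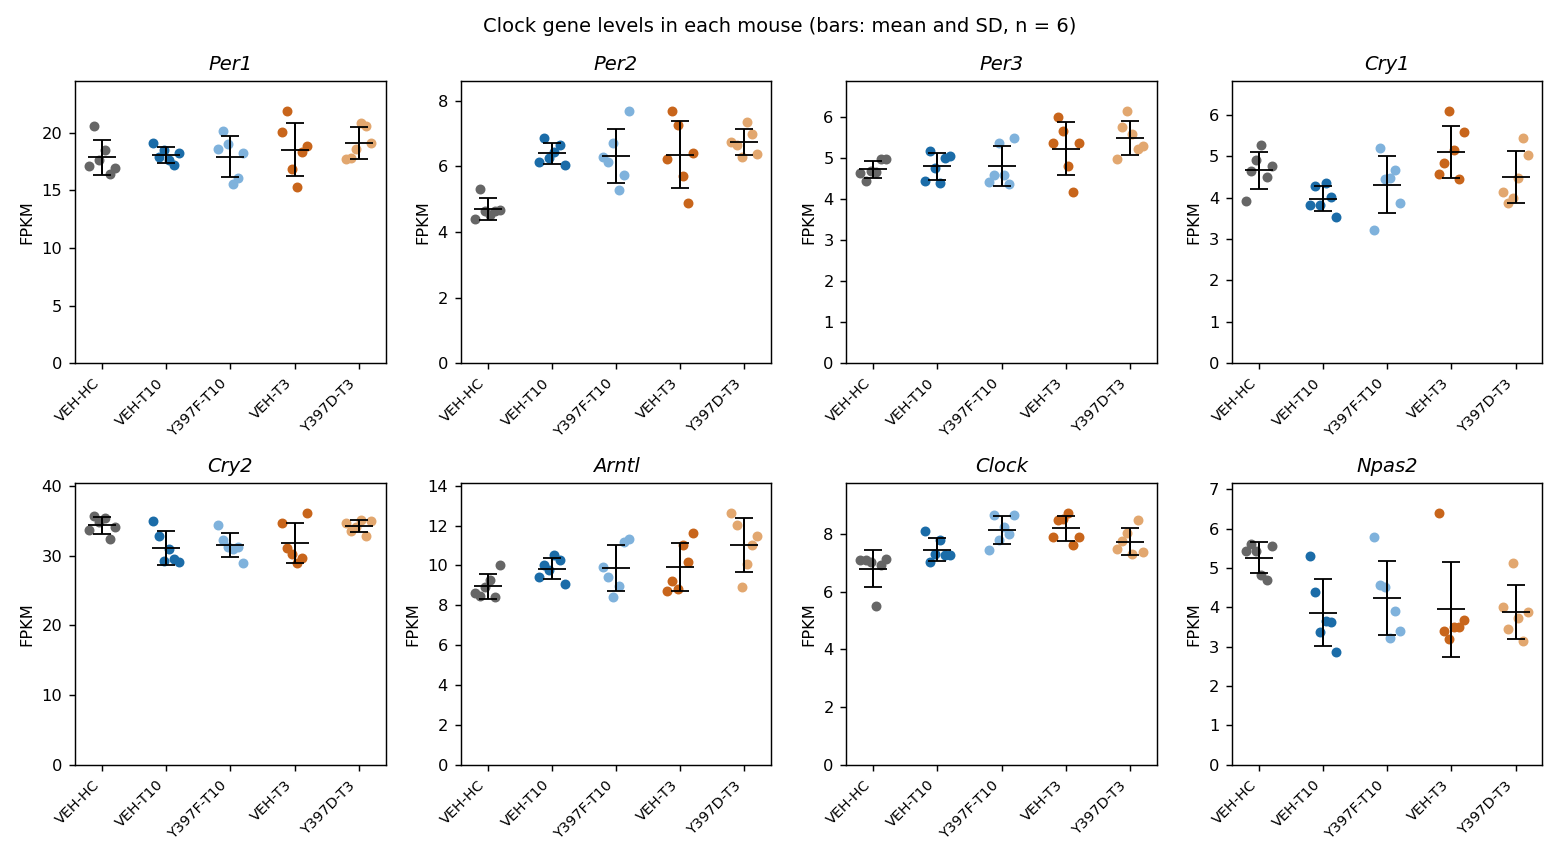
FPKM of the 8 clock genes (vertical axes, from 0) in each mouse of the 5 conditions (horizontal axes), 6 points per condition, with the mean and SD as bars. Per2 in VEH-HC mice lies between 4.39 and 5.32 FPKM, and 22 of 24 trained mice lie above that range, whereas Npas2 lies below the VEH-HC range in 20 of 24 trained mice.

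The first question was whether training changed the clock genes relative to the home cage. Per2 was called higher in all 4 trained conditions, Clock in 3 of them and Arntl in Y397D-T3 only, while Per1, Per3, Cry1, Cry2 and Npas2 passed the test in none. Clock in VEH-T10 (0.12) and Arntl in VEH-T10, Y397F-T10 and VEH-T3 (0.12 to 0.13) were also higher on the log2 scale without passing. By limma with Benjamini-Hochberg adjustment over all tested rows and a threshold of 0.05, the members called higher numbered 1 of 8 in VEH-T10, where 0.319% of tested rows were called higher, and 2 in VEH-T3, where 2.23% were. They numbered 2 with Y397F (0.47% of rows) and 3 with Y397D (3.91%). No member was called lower, against 0.501% of rows in VEH-T10, 2.94% in VEH-T3, 0.66% with Y397F and 3.16% with Y397D. The 4 comparisons share the 6 VEH-HC mice and are therefore not independent of each other. In bulk tissue, fewer cells of a type and less RNA per cell cannot be told apart.

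Among the repressors, Per2 encodes the period protein that helps stabilise the repressive complex. In the home cage its FPKM spanned 4.39 to 5.32, with a median of 4.65. After 10 min of training it spanned 6.04 to 6.87 (median 6.36) with vehicle and 5.29 to 7.68 (6.21) with Y397F. After 3 min it spanned 4.88 to 7.68 (median 6.32) with vehicle and 6.30 to 7.35 (6.70) with Y397D. The VEH-T10 and Y397D-T3 mice did not overlap the home cage mice, and 1 mouse each of Y397F-T10 and VEH-T3 fell within the home cage range. Over all tested rows, 0.789% in VEH-T10 and 2.5% in Y397D-T3 were higher without overlap. Mean Per2 rose from 4.70 ± 0.324 FPKM (SD, n = 6) in VEH-HC to 6.40 ± 0.323 in VEH-T10, a ratio of 1.36, and the difference in log2(FPKM + 1) was 0.38 ± 0.07 (SE; adjusted p = 0.0147). It was 0.36 ± 0.07 in VEH-T3 (adjusted p = 0.0105), 0.35 ± 0.07 with Y397F (adjusted p = 0.0300) and 0.44 ± 0.07 with Y397D (adjusted p = 0.00134). By size of p, Per2 ranked 18 in VEH-T10, 57 in VEH-T3, 25 with Y397F and 20 with Y397D among the 13184 rows. The pseudocount of 1 draws these differences toward 0, and with 0.1 in its place they ranged from 0.41 to 0.51. In Y397F-T10 the call rests on the home cage and Y397F-T10 libraries in use: it was kept in 25 of 30 fits that each left out 1 library and lost without VEH-HC mouse 2, 4 or 5 or Y397F-T10 mouse 3 or 6 (adjusted p up to 0.0825). When the fit held only those 12 libraries that a comparison concerns, the Per2 adjusted p was 0.0707 in Y397F-T10 and 0.085 in VEH-T3, although the differences were the same. The study places Per2 among genes upregulated in VEH-T10 and Y397D-T3 and not in VEH-T3. It used another test, Cyber-T at p under 0.05, so its lists and the calls here are not on the same footing.

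Per1, the closest relative of Per2, did not pass the test in any condition. Its mean was 17.8 ± 1.52 FPKM in VEH-HC, 18.1 ± 0.69 and 18.5 ± 2.32 after 10 and 3 min of training with vehicle, 17.9 ± 1.76 with Y397F and 19.1 ± 1.35 with Y397D (SD, n = 6 each). The differences ran from 0.00 to 0.09 on the log2 scale, and the widest of their 95% intervals on the upper side reached 0.23, in Y397D-T3, below the Per2 estimate there. The ratio of Per2 to Per1 within a library, which no scaling of libraries can change, ran from 0.245 to 0.283 in VEH-HC. It ran from 0.320 to 0.388 in VEH-T10, from 0.306 to 0.422 in Y397F-T10 and from 0.334 to 0.381 in Y397D-T3, all above the home cage range, and from 0.266 to 0.433 in VEH-T3, which overlaps it.

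Per3, the period gene that the core rhythm can do without, was 4.71 ± 0.216 FPKM in home cage mice, 4.79 ± 0.325 and 5.22 ± 0.648 after 10 and 3 min of training with vehicle, 4.79 ± 0.49 with Y397F and 5.48 ± 0.419 with Y397D (SD, n = 6 each). The largest difference, 0.18 ± 0.06 in Y397D-T3, missed the threshold (adjusted p = 0.0780). It fell on the other side with only the 12 libraries compared (adjusted p = 0.0382) and without VEH-T3 mouse 5 (adjusted p = 0.0452).

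Cry1 and Cry2 encode the cryptochromes, the stronger repressors of the ARNTL pair. Cry1 was 4.66 ± 0.446 FPKM in home cage mice, 3.97 ± 0.306 and 5.11 ± 0.628 after 10 and 3 min of training with vehicle, 4.31 ± 0.687 with Y397F and 4.49 ± 0.625 with Y397D (SD, n = 6 each). Its differences from VEH-HC were −0.19 after 10 min and 0.11 after 3 min of training with vehicle, neither of which passed the test (adjusted p = 0.293 and 0.505). Cry2, in the same order, was 34.4 ± 1.22, 31.1 ± 2.40, 31.8 ± 2.92, 31.5 ± 1.75 and 34.2 ± 0.877 FPKM. The Cry2 differences of −0.14, −0.12 and −0.11 in VEH-T10, Y397F-T10 and VEH-T3 had unadjusted p of 0.00854, 0.0213 and 0.0348 and adjusted p of 0.157, 0.208 and 0.188, and the difference in Y397D-T3 was −0.01.

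Among the activators, Clock encodes the partner of ARNTL that also acetylates histones. Clock FPKM spanned 5.50 to 7.13 in home cage mice, with a median of 7.05. After 10 min of training it spanned 7.03 to 8.08 (median 7.29) with vehicle and 7.44 to 8.66 (8.12) with Y397F, and after 3 min 7.62 to 8.72 (8.19) with vehicle and 7.29 to 8.49 (7.62) with Y397D. All mice of Y397F-T10, VEH-T3 and Y397D-T3 lay above every home cage mouse, as did 5 of 6 VEH-T10 mice, so that 23 of 24 trained mice exceeded the home cage range. Rows higher without overlap made up 0.554% of all tested rows with Y397F, 0.675% in VEH-T3 and 2.5% with Y397D. Clock rose by 0.23 ± 0.05 on the log2 scale with Y397F (adjusted p = 0.0313), by 0.24 ± 0.05 in VEH-T3 (adjusted p = 0.0132) and by 0.17 ± 0.05 with Y397D (adjusted p = 0.0482), ratios of mean FPKM of 1.20, 1.21 and 1.14. In VEH-T10 the difference of 0.12 ± 0.05 did not pass (adjusted p = 0.267). VEH-HC mouse 4, at 5.50 FPKM, stood below the other home cage mice, which lay between 6.92 and 7.13. Without it the Clock differences were 0.18 with Y397F (adjusted p = 0.0790), 0.19 in VEH-T3 (0.0345) and 0.12 with Y397D (0.118). Removing from each library the trend of expression with transcript length and GC content lowered them to 0.14 (adjusted p = 0.0538), 0.12 (0.0774) and 0.11 (0.041), a reduction by more than 1.5 times in the former pair. Over 30 fits that each left out 1 library, Clock was kept in 30 in VEH-T3, in 23 with Y397F (lost without VEH-HC mouse 2, 4 or 5 or Y397F-T10 mouse 3, 4, 5 or 6) and in 10 with Y397D, and with only the 12 libraries compared it was called in none of the 3.

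Arntl, the activator that the mouse clock cannot run without, spanned 8.41 to 10.0 FPKM (median 8.76) in VEH-HC and 8.93 to 12.6 FPKM (median 11.3) in Y397D-T3, with 1 Y397D-T3 mouse inside the home cage range and 5 above it. Mean Arntl rose from 8.96 ± 0.624 to 11.03 ± 1.35 FPKM (SD, n = 6), a difference of 0.27 ± 0.08 on the log2 scale (adjusted p = 0.0326). The call was kept in the 8 other settings tried and in 22 of 30 fits without 1 library, with an adjusted p up to 0.0818 and losses without VEH-HC mouse 1, 2, 3 or 5 or Y397D-T3 mouse 1, 2, 5 or 6. In VEH-T10, Y397F-T10 and VEH-T3 the Arntl means were 9.84 ± 0.536, 9.87 ± 1.17 and 9.92 ± 1.22 FPKM, with differences of 0.12, 0.12 and 0.13 that did not pass (adjusted p = 0.476, 0.431 and 0.343). Arntl2, the second gene for an ARNTL-type activator, averaged 1.097 FPKM in VEH-HC and 1.36 to 1.45 in the trained conditions and was not called in any.

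Npas2, which stands in for CLOCK in the forebrain, was lower in most trained mice and passed the test in no condition. In the home cage its FPKM spanned 4.70 to 5.61, with a median of 5.43. After 10 min of training it spanned 2.87 to 5.32 (median 3.64) with vehicle and 3.22 to 5.78 (4.22) with Y397F, and after 3 min 3.20 to 6.40 (3.50) with vehicle and 3.13 to 5.12 (3.80) with Y397D. In each trained condition 5 of 6 mice lay below every home cage mouse and 1 lay within or above the home cage range. On the log2 scale the differences were −0.38 ± 0.13 in VEH-T10 (adjusted p = 0.139), −0.37 ± 0.13 in VEH-T3 (0.0868), −0.28 ± 0.13 with Y397F (0.268) and −0.37 ± 0.13 with Y397D (0.0769). The Y397D value passed without Y397D-T3 mouse 3 (adjusted p = 0.0421), without VEH-T3 mouse 1 (0.0328) and with only the 12 libraries compared (0.0148), and the VEH-T3 value passed without VEH-T3 mouse 1 (0.00855). The 4 exceptions, VEH-T10 mouse 1, Y397F-T10 mouse 1, VEH-T3 mouse 1 and Y397D-T3 mouse 3, were also the 4 libraries lowest in summed oligodendrocyte markers (5 genes, 1136 to 1432 FPKM) and in summed astrocyte markers (5 genes, 391 to 506 FPKM) of all 30. Without these 4 libraries, a choice made after seeing the data that also removes the highest Npas2 value of each trained condition, the differences were −0.46 in VEH-T10 (adjusted p = 0.00108), −0.49 in VEH-T3 (0.00027), −0.35 with Y397F (0.00792) and −0.43 with Y397D (0.0011), and all 4 were called. In those fits Per2 remained called in all 4 conditions (adjusted p = 0.00101 to 0.0109), Clock in Y397D-T3 was not (0.0627), and Cry2 was called lower in VEH-T10 (−0.18, adjusted p = 0.0218) and VEH-T3 (−0.14, adjusted p = 0.05, just under the threshold). The part of tissue composition in the Npas2 values was not tested further.

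**Figure D2:**
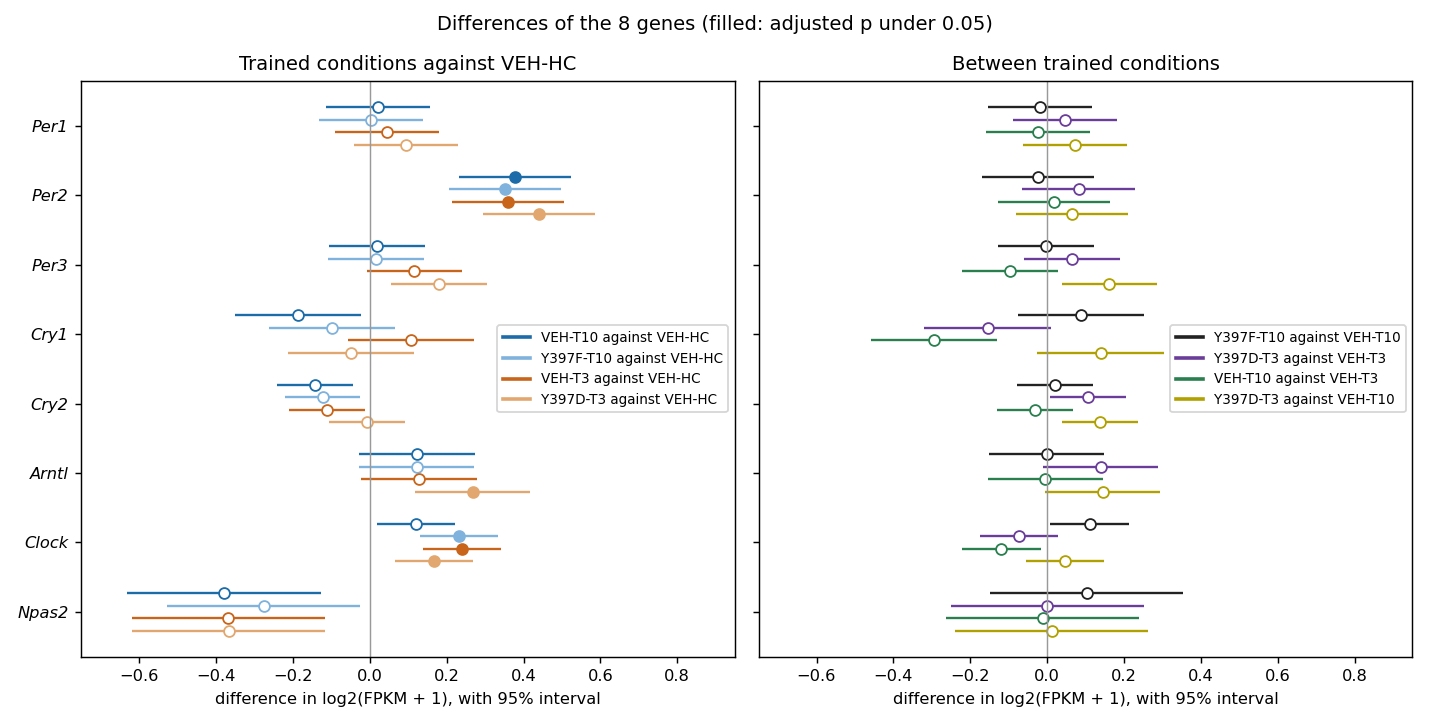
Differences in log2(FPKM + 1) with 95% intervals (horizontal axes) for the 8 genes (vertical axis), trained conditions against VEH-HC on the left and trained conditions against each other on the right, with filled points for an adjusted p under 0.05. The 4 Per2 points on the left lie between 0.35 and 0.44 and are all filled, and no point on the right is filled.

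The second question was whether the clock genes differed among trained mice by training length or CREST mutant plasmid. Vehicle mice received no DNA, and the study did not test wild-type CREST. Effects of plasmid DNA, of added CREST and of the point mutation therefore cannot be told apart. Y397D-T3 and VEH-T10 differ in both plasmid and training length. No member was called by limma when each mutant was set against vehicle at its own training length, when VEH-T10 was set against VEH-T3, or when Y397D-T3 was set against VEH-T10. The whole table gave few calls there as well, with 0% of rows higher and 0% lower for the Y397F mutant, 0% and 0.00758% for the Y397D mutant, 0% and 0.0455% for VEH-T10 against VEH-T3 and 0.0303% and 0.00758% for Y397D-T3 against VEH-T10. At an unadjusted p under 0.05 these comparisons counted 1, 1, 2 and 2 members. Of the 13184 tested rows, that threshold gave 256 higher and 242 lower for the Y397F mutant, and 679 and 358 for the Y397D mutant. It gave 481 and 594 for VEH-T10 against VEH-T3, and 692 and 490 for Y397D-T3 against VEH-T10. For Per2 the difference was −0.02 between Y397F-T10 and VEH-T10 (95% interval −0.17 to 0.12), 0.08 between Y397D-T3 and VEH-T3 (−0.06 to 0.23) and 0.02 between VEH-T10 and VEH-T3 (−0.13 to 0.16), so that differences beyond these bounds, all smaller than the rise over the home cage, are outside the intervals. For Clock the same intervals were 0.01 to 0.21, −0.18 to 0.03 and −0.22 to −0.02.

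Of the 8 genes, Cry1 showed the largest difference between both training lengths with vehicle. It was 3.53 to 4.35 FPKM in VEH-T10 and 4.46 to 6.08 in VEH-T3, with no overlap, a difference of −0.29 ± 0.08 on the log2 scale and an unadjusted p of 0.00158. The adjusted p was 0.357, and it lay between 0.119 and 0.732 when each library was left out in turn, so the difference did not pass the correction. In this comparison 0.311% of all tested rows were lower in VEH-T10 without overlap. Per3 and Cry2 were higher in Y397D-T3 than in VEH-T10 by 0.16 ± 0.06 and 0.14 ± 0.05 (adjusted p = 0.477 and 0.435), and Cry2 was higher in Y397D-T3 than in VEH-T3 by 0.11 ± 0.05 (adjusted p = 0.628).

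By the same measures, the calls against the home cage depended on the setting more for Clock than for Per2. Per2 differences ran from 0.35 to 0.51 over the 8 other settings, and Clock differences over the 3 conditions where it was called from 0.11 to 0.27.

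**Figure D3:**
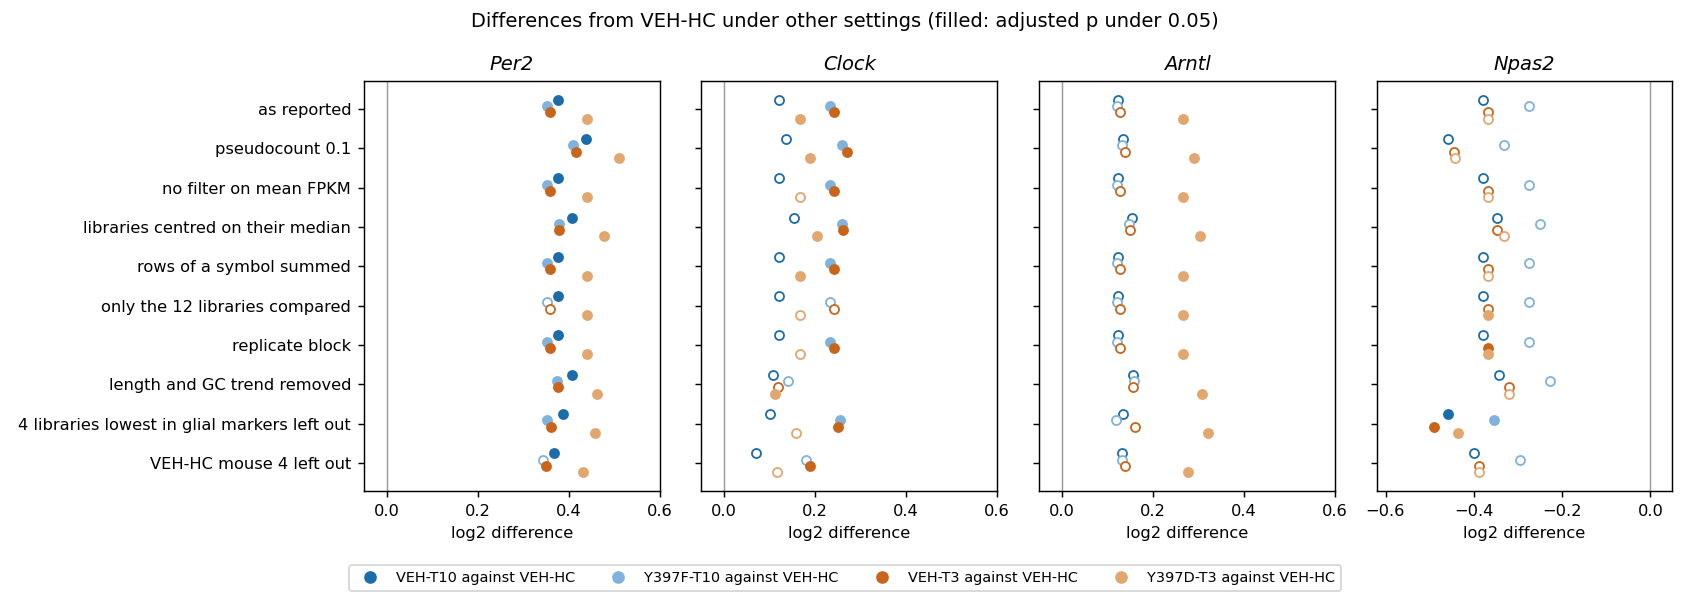
Differences from VEH-HC on the log2 scale (horizontal axes) for Per2, Clock, Arntl and Npas2 under 10 settings (vertical axis), with 1 color per trained condition and filled points for an adjusted p under 0.05. Per2 stays between 0.34 and 0.51 throughout, Clock falls to between 0.11 and 0.14 once the length and GC trend is removed, and Npas2 is filled in all 4 conditions only when the 4 libraries lowest in glial markers are left out.

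Within conditions, 2 of the 28 pairs of members varied together from mouse to mouse after Benjamini-Hochberg adjustment. Deviations from the condition means in log2(FPKM + 1) were correlated between Cry2 and Npas2, with Pearson r = 0.702 (adjusted p = 0.00448, permutation test within conditions, n = 30) and Spearman rho = 0.748 (adjusted p = 0.000280, permutation test). Leaving out the 2 mice farthest from the Cry2 median gave r = 0.692, and leaving out the 4 libraries lowest in glial markers gave r = 0.571 and rho = 0.666. Per2 and Per3 had Pearson r = 0.651 (adjusted p = 0.0414, permutation test, n = 30) and Spearman rho = 0.455 (adjusted p = 0.287, permutation test), and r = 0.650 (adjusted p = 0.0531, permutation test) without the 2 mice farthest from the Per2 median. The rank correlation of this pair therefore did not pass, and without those mice r was nearly the same while its adjusted p lay just past the threshold. With libraries centred on their median the pair had r = 0.727 (adjusted p = 0.00924, permutation test), and without the 4 libraries lowest in glial markers r = 0.749 and rho = 0.616. Per1 and Per2 had r = 0.457 (adjusted p = 0.428, permutation test, n = 30), and the activators Arntl and Clock r = −0.0664 (adjusted p = 0.971, permutation test, n = 30). Libraries of 1 condition differ in composition and in relative depth, which both genes of a pair share.

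**Figure D4:**
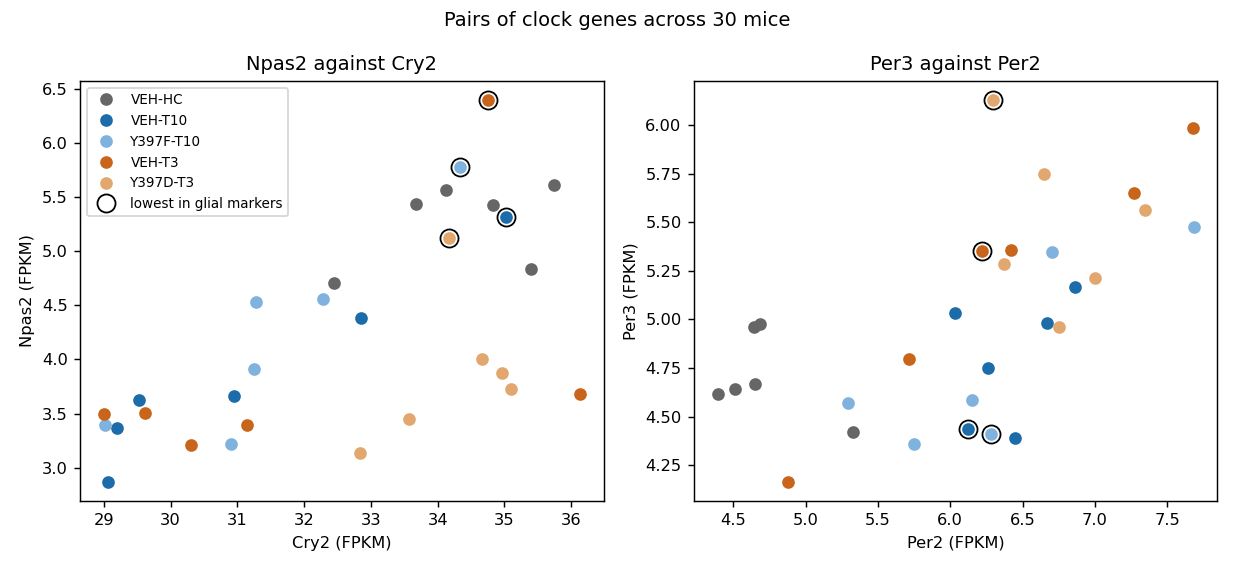
FPKM of Npas2 against Cry2 (left) and of Per3 against Per2 (right), 1 point per mouse in the color of its condition, with circles around the 4 libraries lowest in glial markers. In the left panel the circled libraries lie between 5.12 and 6.40 FPKM of Npas2, within or above the VEH-HC range, and in the right panel they lie between 4.41 and 6.13 FPKM of Per3.

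The genes most like each member over the 30 libraries, by Pearson r of log2 values centred on the library median and given as a description, differed from member to member. Npas2 was close to Kcnk3 (r = 0.911) and Kcnf1 (0.906), which encode potassium channel subunits. Cry2 was closest to Slc12a5 (0.889), the neuronal chloride exporter, Diras2 (0.888) and Mark1 (0.880), and Clock to Aff4 (0.896), Mib1 (0.892) and Lnpep (0.891). Per2 was closest to 2810403A07Rik (0.839), Srek1 (0.839) and Rbm12b1 (0.828), and Per3 to Mphosph9 (0.823), Rbbp5 (0.780) and Gltscr1l (0.775). Arntl was closest to Ap1ar (0.787), Gabra5 (0.779) and Cdc40 (0.765), Cry1 to AI593442 (0.725), Tiam1 (0.7) and Igsf3 (0.688), and Per1, with the lowest values, to A730017L22Rik (0.705), Jade2 (0.669) and Bcorl1 (0.668).

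Of 21 other genes of the clock (kinases and ubiquitin ligases, loop receptors, other repressors, the second ARNTL gene and output factors), 20 were tested. Against VEH-HC 4 of them were called lower and 1 higher in Y397D-T3, where 3.16% and 3.91% of tested rows were. Each other trained condition had 3 called lower and 0 higher, beside 0.501% to 2.94% of tested rows called lower. The median difference of the 20 genes ran from −0.08 to −0.03, beside −0.04 to −0.03 for all tested rows. Nr1d1, Ciart and Dbp, whose products repress Arntl, repress the ARNTL pair and carry the rhythm to output genes, were lower in all 4 conditions, by 0.36 to 0.45, 0.58 to 0.77 and 0.65 to 0.73 on the log2 scale. In Y397D-T3, Nr1d2 fell by 0.25 (adjusted p = 0.0213), with a difference of the same size in VEH-T10 (−0.25) that did not pass (adjusted p = 0.0615), and Fbxw11, a ubiquitin ligase subunit that acts on PER proteins, rose by 0.14 (adjusted p = 0.0390). Between trained conditions 0 of the 20 were called by limma, with 0 to 3 at an unadjusted p under 0.05.

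Activity-regulated genes were also followed, since Per1 and Per2 belong to the genes that activity can induce. Of 10 listed, 2 were called higher in VEH-T10 (0.319% of tested rows), Y397F-T10 (0.47%) and VEH-T3 (2.23%) and 7 in Y397D-T3 (3.91%). In Y397D-T3 against VEH-T3, 0 of the 10 were called. Homer1, which encodes a postsynaptic scaffold protein, rose in all 4 conditions, by 0.42 to 0.51. Fosb, an AP-1 factor, rose by 0.48 in VEH-T10 (adjusted p = 0.0319). Egr1, a zinc finger factor, rose by 0.61 in VEH-T3 (adjusted p = 0.0104) and by 0.47 in VEH-T10 without passing (adjusted p = 0.0651). The means of both genes were above VEH-HC in all 4 conditions. Mean Egr1 was 36.3 FPKM in home cage mice and 50.5 and 56.1 after 10 and 3 min of training with vehicle. It was 51.4 with Y397F and 54.4 with Y397D. Mean Fosb, in the same order, was 1.68, 2.79, 2.32, 2.66 and 2.43 FPKM. Of 8 glucocorticoid-responsive genes, 7 were tested and 0 were called by limma against VEH-HC, with 0 at an unadjusted p under 0.05 in VEH-T10 and 2 in each other trained condition.

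Some markers of neighbouring tissue differed between home cage and trained mice. Summed thalamus markers (5 genes) had a median of 36.6 FPKM in VEH-HC and 22.6 to 27.6 in the trained conditions, and Slc17a6, the vesicular glutamate transporter of thalamic neurons, fell from 4.39 FPKM to 1.66 in VEH-T10, 1.49 with Y397F and 1.92 with Y397D (adjusted p = 0.0310, 0.0313 and 0.0199). Of the deep cortex markers (5 genes, 4 tested), Ctgf fell from 4.57 FPKM to 1.93 in VEH-T10 (adjusted p = 0.0479) and 2.49 in Y397D-T3 (adjusted p = 0.0443), where Hs3st4 rose by 0.34 (adjusted p = 0.0357), and the summed level had a median of 57.0 FPKM in VEH-HC and of 56.0 to 62.3 in the trained conditions. Of 6 interneuron markers 0 were called by limma in any trained condition, with 2 lower at an unadjusted p under 0.05 in Y397F-T10 and 3 in each other one, and the list's median difference lay between −0.23 and −0.17. Summed choroid plexus markers (6 genes) ranged from 918 to 5590 FPKM in VEH-HC and from 10.3 to 12789 over the trained mice. The home cage median of this sum was 3146 FPKM. After 10 min of training the median was 102 with vehicle and 55.8 with Y397F, and after 3 min 1954 with vehicle and 124 with Y397D. Of the 6 genes, 0 were called by limma in any trained condition. At an unadjusted p under 0.05, 5 were lower in Y397D-T3, 2 in VEH-T10 and 0 in the remaining pair. Summed CA1 pyramidal markers (5 genes) mark the field named in the study's methods. They ranged from 167 to 257 FPKM over all mice, with medians of 202 to 221 in the 5 conditions. Of these 5 genes, 1 was called higher and 0 lower in VEH-T3 and in Y397D-T3, where 2.23% and 3.91% of tested rows were called higher. Summed dentate gyrus markers (4 genes) ranged from 86.1 to 113 FPKM in VEH-HC and from 45.5 to 153 over the trained mice. Summed CA3 and CA2 markers (5 genes) ranged from 141 to 174 FPKM in VEH-HC and from 118 to 267 over the trained mice. No marker of any list was at 0 in all libraries. The part of these differences in the Per2, Clock, Arntl and Npas2 results was not tested.

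Depth relative to the median library, read from the spacing of low FPKM values, ran from 0.812 to 1.25, and no absolute depth can be had from FPKM. The median FPKM of the tested rows ran from 9.08 to 10.3 over the libraries. Centring each library on its median log2 value kept the sign of all called members.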

How the data were processed

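RNA of 30 samples, 1 per mouse, was sequenced by the authors. The labels call the tissue dorsal hippocampus and the study's methods dCA1. Per the labels, the FPKM values were made with TopHat2 2.1.1 and Cufflinks 2.2.1 on mm10; strand handling is not given in the sources used here. The authors deposited 24883 rows by 30 columns of FPKM, of which 0 were left out. Instruments (NovaSeq and HiSeq) are not assigned to libraries, so sequencing batch could not enter a fit.

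The 13184 rows averaging 1 FPKM or more were fitted with limma 3.58.1 (R 4.3.3) as log2(FPKM + 1), with all 30 libraries in 1 fit, empirical Bayes with a trend, 8 contrasts and Benjamini-Hochberg adjustment over all tested rows per contrast, at 0.05. The study's own test was a Cyber-T analysis of variance, which is not used here. With 1 library per mouse, p-values measure the spread between mice. Correlations between members used deviations from condition means and 100000 permutations within conditions, 2-sided, adjusted over 28 pairs. Alternatives were 0.1 as pseudocount, no minimum level, libraries centred on their median, only the 12 libraries compared, a replicate block, rows of a symbol summed (280 symbols share 817 rows, none of them a member), length and GC trend removed, unadjusted p, each library left out, and, added after seeing the data, 4 libraries low in glial markers left out. The genes named are the 8 members, the 3 rows most like each member and up to 4 called genes per list and comparison with the largest differences, and Arntl2, chosen after its values were seen. Of these, 1 gene is not reported here. Members and lists were chosen with earlier results of these data known. Gene models came from GENCODE M21. Other steps used Python 3.11.15, numpy 2.4.6, pandas 2.3.3, scipy 1.17.1 and matplotlib 3.10.9.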

Additional observations from a re-analysis of the deposited data

Results flagged for a closer look

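In 3 of 40 groups of 6 mice, 1 mouse stood apart from the others by Dixon's criterion (a gap over 0.625 of the group's range), and chance alone gives about 1 such group in 20 for each gene and condition. Per2 in VEH-HC mouse 2 was 5.32 FPKM, with the other 5 home cage mice between 4.39 and 4.68. Clock in VEH-HC mouse 4 was 5.50 FPKM, with the others between 6.92 and 7.13. Npas2 in VEH-T3 mouse 1 was 6.40 FPKM, with the others between 3.20 and 3.68, and without this mouse Npas2 was called lower in VEH-T3 (−0.49, adjusted p = 0.00855, limma) and in Y397D-T3 (−0.37, adjusted p = 0.0328, limma).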

How the results depend on the processing

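Of 304 recomputed values of called members, 0 changed sign, and of 2432 over all members and comparisons 63 did, none of them with a call on either side. Members called against VEH-HC numbered 1 and 2 after 10 min with vehicle and Y397F, and 2 and 3 after 3 min with vehicle and Y397D. With only the 12 libraries compared they numbered 0 in Y397F-T10 and 0 in VEH-T3, where 0 rows of the whole table were then called. With the length and GC trend removed they numbered 1 and 1 in the same conditions (Per2 alone). At an unadjusted p they numbered 5 in VEH-T10 (2 higher, 3 lower), 5 in Y397D-T3 (4 and 1) and 4 in each of the remaining pair (2 and 2) against VEH-HC. Between trained conditions they numbered 1, 1, 2 and 2. Of the 13184 tested rows, 602 were higher and 1362 lower at that threshold in VEH-T10, and 725 and 1507 in Y397F-T10. VEH-T3 had 1027 and 1818 such rows, and Y397D-T3 had 1358 and 1929. With the 4 libraries lowest in glial markers left out, the members called numbered 3 in VEH-T10 and 4 in VEH-T3. Leaving out each library in turn gave 1 to 1 member after 10 min and 2 to 3 after 3 min with vehicle, 0 to 2 with Y397F and 1 to 4 with Y397D against VEH-HC, and 0 between trained conditions. The cause of these changes was not tested. With each gene's 2 farthest libraries left out, 1 of 28 pairs was correlated in place of 2.

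The replicate numbers belong to different mice, so same-numbered libraries were not treated as pairs. Correlations of their deviations lay between −0.496 and 0.521. Their mean was highest in VEH-T10 against VEH-T3, at 0.213 beside −0.0357 for libraries of unlike number. It was lowest in Y397F-T10 against VEH-HC, at −0.163 beside 0.0299. What libraries of the same number share is not given in the sources used here. With the replicate number as a block, 1 and 3 members were called with vehicle after 10 and 3 min, 2 with Y397F and 3 with Y397D, with Npas2 added in VEH-T3 (adjusted p = 0.0384) and Y397D-T3 (0.0318) and Clock lost in Y397D-T3 (0.0676). FPKM carries no read totals, and precision rests on the spread among 6 mice.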
